A study of Mus musculus with 28 samples.

Results

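Untreated CTLL2 cells sampled 4 h after a change to fresh medium (n = 3 libraries) were compared with untreated cells sampled at 0 h. The 0 h group had n = 4 libraries, and the comparison covered all genes. The series has no 4 h library without the medium change, so fresh medium, handling and time in culture cannot be told apart. CTLL2 is a mouse cytotoxic T-cell line that needs interleukin-2 (IL-2) to live, and the labels give its strain as C57BL/6. Before time 0 the cells had spent 24 h in complete medium, and no exosomes were added to either group. The 7 libraries were chosen by their sample titles and form part of a 28-library RNA sequencing series, whose other libraries are untreated cells at 0.5, 2 and 8 h and cells given B16F0 melanoma exosomes. The series design calls the replicates biological. Libraries came in 2 labelled batches, and 4 h replicate 2 and 0 h replicate 1 are the batch 1 libraries here. The other 2 libraries at 4 h and the other 3 at 0 h are batch 2.

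T cells that divide under IL-2 use glucose and oxygen quickly, and a culture left to grow depletes its medium. When oxygen is short, hypoxia-inducible factor (HIF) is no longer degraded and switches on genes for glucose uptake, glycolysis and mitochondrial removal. Cholesterol synthesis genes are switched on by the SREBP factors when cell sterol is low, and IL-2 acts through the STAT5 factor on survival genes such as Bcl2 and the Pim kinases.

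Values are normalized counts, read counts that the authors scaled by a library's size factor, and they are listed in replicate order, 1 to 3 at 4 h and 1 to 4 at 0 h. Depth ran from 10587840 to 17891338 recovered reads in the 7 libraries, and an observed 0 allows up to 3 reads, equal to 2.55 to 4.33 normalized counts by library (counting error only). The table lists 30608 genes, and 15.7% of them had no reads in 4 h replicate 1, against 32% to 36% in the other 6 libraries. In that library 3564 genes had reads that none of the other 6 had, with a median of 1 read, and 30 of them passed the filter for testing. T-cell markers were present, with Cd3e between 3193 and 3975 normalized counts and Thy1 between 19346 and 21711. Of the same 28-gene T-cell list, Trac lay between 58.5 and 142 and Cd8a between 46.8 and 152, and Cd5 was at 0 in all 7 libraries. In a list of 9 macrophage and dendritic cell genes, 6 (Adgre1, C1qa, C1qb, Csf1r, Lyz2 and Mrc1) reached at most 3.44 normalized counts at 4 h and 4.33 at 0 h. The list also holds Itgax, Cd68 and Cd14. Its summed level was 8232 to 9770 at 4 h and 6289 to 10161 at 0 h, mostly Itgax. Libraries of different batches differed by 21.6 to 41.5 times counting noise (chi-square per degree of freedom), and libraries of 1 batch by 3.22 to 6.46 times, and the test carried a batch term.

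Of 14828 genes tested, 144 were lower at 4 h than at 0 h (0.971% of genes) and 33 were higher (0.223%), by limma with Benjamini-Hochberg adjustment at 0.05. Genes of the HIF response, of glycolysis and of cholesterol synthesis fell, as did Bcl2 and Pim2, and the smaller set that rose included factors of ribosome assembly and spermidine synthesis. The falls had a median log2 fold change of -0.55 and the rises of 0.39; 26 genes fell and 2 rose by more than 1 log2 unit. In bulk RNA, fewer cells of a type and less RNA per cell cannot be told apart. All 4 h libraries lay below the 0 h libraries of their own batch for 143 of the 144, an order that 10.4% of all tested genes showed, and the call and this order use the same values. Above their own batch lay 32 of the 33, against 11.4% of tested genes. The count of lower genes was 379 in batch 2 alone and 10 without the batch term, and it was 87 without 4 h replicate 1 and 49 without 4 h replicate 3. For higher genes these counts were 313, 0, 16 and 3, and 14 to 20 without 0 h replicate 2, 3 or 4 or 4 h replicate 2, but 62 without 0 h replicate 1.

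Genes of the HIF response fell together. Of the 20 tested members of a list of 25 hypoxia genes, 10 fell and 0 rose. Over all genes tested these shares were 0.971% and 0.223%. The list had a median log2 fold change of -0.45, against 0.01 over all genes tested. In 13 of the 20, all 4 h libraries lay below the 0 h libraries of their batch, an order that 10.4% of tested genes showed. Without 4 h replicate 1 the list again had 10 lower members, and in batch 2 alone 13. It had 9 without 4 h replicate 3 and 1 without the batch term.

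Ankrd37, an ankyrin-repeat protein gene induced by HIF (ENSMUSG00000050914.15, chromosome 8 from 45996902 to 46005707 of GRCm38), had 244, 1331 and 161 normalized counts at 4 h, against 2424, 711, 924 and 936 at 0 h. The batch 1 library was the highest of each group, so the groups overlapped across batches and separated within each. The log2 fold change was -1.73 ± 0.28 (SE, adjusted p = 0.00087). Bnip3 (ENSMUSG00000078566.8, chromosome 7 from 138890836 to 138909519), a receptor for the removal of mitochondria, was at 868, 1828 and 832 normalized counts at 4 h and 3868, 1902, 2263 and 2406 at 0 h, and here every 4 h library was below every 0 h library. It fell by 58.9%, a log2 fold change of -1.28 ± 0.13 (adjusted p = 3.54e-06). Its relative Bnip3l, also a mitophagy receptor, was at 1269, 1709 and 1184 at 4 h and 2569.8, 1801, 2027 and 2207 at 0 h (log2 fold change -0.68 ± 0.08, adjusted p = 2.57e-05), and the transcribed pseudogene Bnip3l-ps fell too (-0.57), so reads of that pair may be shared.

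Slc2a1 encodes the glucose transporter GLUT1 (ENSMUSG00000028645.11, chromosome 4 from 119108711 to 119137983). It had 824, 1827 and 797 normalized counts at 4 h, against 3050.0, 1861, 2244 and 1991 at 0 h, with no overlap between the groups, and fell by 54.2% (log2 fold change -1.13 ± 0.13, adjusted p = 8.98e-06). Pdk1, the kinase that keeps pyruvate out of the mitochondrial cycle, was at 1378, 2135 and 1294 at 4 h and 3478, 2175, 2306 and 2467 at 0 h. All 4 h values of Pdk1 were again below all 0 h values, and the log2 fold change was -0.77 ± 0.08 (adjusted p = 4.69e-06). P4ha1, a subunit of the enzyme that hydroxylates collagen prolines, was at 1077, 2435 and 942 at 4 h and 3905, 2264, 2535 and 2433 at 0 h. Batch 1 was again the higher in both groups of P4ha1, and the fall was -1.07 ± 0.15 on the log2 scale (adjusted p = 0.000239). Ero1l, an oxidase that supports disulfide formation in the endoplasmic reticulum, had 2679, 6996 and 2645 normalized counts at 4 h, against 14974, 4856, 6224 and 5671 at 0 h, a log2 fold change of -1.05 ± 0.13 (adjusted p = 2.44e-05).

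Egln1, the oxygen sensor that marks HIF for degradation, was at 1725, 2179 and 1813 at 4 h and 2815, 2528, 2816 and 2581 at 0 h and fell by 29.7% (adjusted p = 0.000356). Kdm3a, a histone demethylase, changed by -0.50 ± 0.09 (adjusted p = 0.00219) and the stress gene Ndrg1 by -0.32 ± 0.07 (adjusted p = 0.0275). The genes of the factor itself did not pass the test: Hif1a had a log2 fold change of 0.01 ± 0.07 (adjusted p = 0.981), Epas1 of -0.01 ± 0.13 (adjusted p = 0.988) and Arnt of -0.10 ± 0.10 (adjusted p = 0.785). The growth factor gene Vegfa was -0.40 ± 0.11 (adjusted p = 0.0819). Of the members described, Ankrd37, Bnip3, Slc2a1, P4ha1, Ero1l and Pdk1 kept the call whichever of the 7 libraries was left out; the highest adjusted p among them was 0.0247, for Ankrd37, whose exons overlap those of Lrp2bp and Ufsp2 on the other strand.

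**Figure D1:**
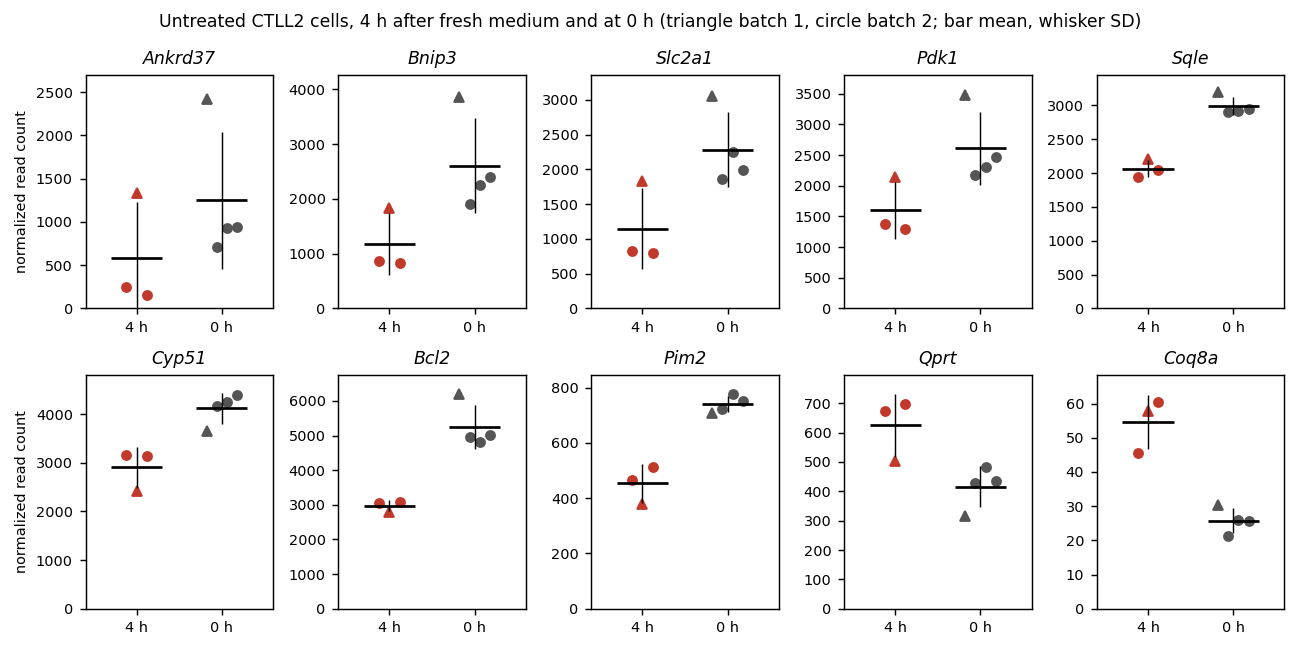
Normalized read count (vertical axes, linear, from 0) of 10 genes in each library at 4 h (red, left) and 0 h (grey, right), with triangles for batch 1, circles for batch 2, bars for group means and whiskers for SD (n = 3 and n = 4). Bnip3, Slc2a1, Pdk1, Sqle, Cyp51, Bcl2 and Pim2 show every 4 h library below every 0 h library, Ankrd37 separates within each batch only, and Qprt and Coq8a lie higher at 4 h in every library.

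The promoters of these genes were searched for the letters that HIF binds. RefSeq windows of 300 bases, 250 before and 50 after a gene's start on GRCm38.p6, were matched by symbol for 103 of the 144 lower genes and 24 of the 33 higher ones. The extended hypoxia element TACGTGC, on either strand, stood in 8 of the 140 windows of the lower genes (5.71%), in 254 of all 32851 windows (0.773%) and in 119 of the 12317 windows of tested genes (0.966%). None of the 38 windows of the higher genes held it. The 8 windows belong to Ankrd37, Egln1, P4ha1, Pgam1, Ctla4, Jmjd6, Ppme1 and the noncoding transcript 2500002B13Rik. In the hypoxia list, 4 of 26 windows held it (15.4%). These letters share ACGTG with the E-box CACGTG but cannot be that element, and a match describes the letters and not a bound site. None of the 8 windows belongs to Bnip3, Slc2a1, Pdk1, Ero1l or Pfkl. The windows of Ankrd37, Egln1, P4ha1 and Pgam1 are shown as those of called hypoxia or glycolysis list members that hold the element. Capitals mark the element or its reverse complement, 5′ to 3′ on the gene's strand.
Ankrd37 (chr8:45999801-46000100, minus strand): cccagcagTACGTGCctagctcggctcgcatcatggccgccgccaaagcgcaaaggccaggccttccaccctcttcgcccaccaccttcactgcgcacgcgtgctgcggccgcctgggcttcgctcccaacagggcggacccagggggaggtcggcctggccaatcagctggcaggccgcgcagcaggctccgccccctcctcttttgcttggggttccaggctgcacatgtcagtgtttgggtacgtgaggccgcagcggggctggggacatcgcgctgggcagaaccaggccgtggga
Egln1 (chr8:124949205-124949504, minus strand): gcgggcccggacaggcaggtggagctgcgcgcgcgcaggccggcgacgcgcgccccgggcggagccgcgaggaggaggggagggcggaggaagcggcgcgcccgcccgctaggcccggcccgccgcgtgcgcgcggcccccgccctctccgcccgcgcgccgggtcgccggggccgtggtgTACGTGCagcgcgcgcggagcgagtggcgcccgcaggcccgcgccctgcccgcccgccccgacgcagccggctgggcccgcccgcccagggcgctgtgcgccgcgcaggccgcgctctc
P4ha1 (chr10:59323046-59323345, plus strand): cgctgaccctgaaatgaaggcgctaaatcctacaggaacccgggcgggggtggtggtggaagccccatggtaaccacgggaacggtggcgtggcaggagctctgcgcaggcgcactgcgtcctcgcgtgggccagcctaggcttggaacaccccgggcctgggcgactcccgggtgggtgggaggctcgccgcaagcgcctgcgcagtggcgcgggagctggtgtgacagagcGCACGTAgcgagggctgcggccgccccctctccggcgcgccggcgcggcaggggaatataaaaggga
Pgam1 (chr19:41911621-41911920, plus strand): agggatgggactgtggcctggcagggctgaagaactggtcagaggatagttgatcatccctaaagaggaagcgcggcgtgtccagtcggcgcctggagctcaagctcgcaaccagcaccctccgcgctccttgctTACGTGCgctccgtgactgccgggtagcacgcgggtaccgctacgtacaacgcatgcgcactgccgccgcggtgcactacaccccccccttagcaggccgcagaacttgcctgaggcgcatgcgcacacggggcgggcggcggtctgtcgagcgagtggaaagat
The element begins 242 bases before the start of Ankrd37, 69 before that of Egln1, 17 before that of P4ha1 and 115 before that of Pgam1.

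The other 6 motifs were searched in the same windows. The STAT element TTCNNNGAA stood in 6.43% of the windows of the lower genes, against 6.98% of the windows of tested genes, and the E-box CACGTG in 7.14%, against 9.74%. The cyclic AMP element TGACGTCA was in 3.57%, against 3.17%, and the FOXO letters TGTTTAC in 2.86%, against 2.59%. The ATF4 letters TGATGNAAT were in 0 of the 140 windows, against 0.52%, and the sterol element TCACNCCAC in 0.714%, against 1.15%. Of the 38 windows of the higher genes, 13.2% held the E-box and 0 the cyclic AMP element, while the STAT, sterol and FOXO letters were each in 2.63%. The ATF4 letters were in 2 of them (5.26%), both of 1 gene. These shares are descriptions without a test.

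Glycolysis genes fell at several steps. Of 22 tested members of the glycolysis and glucose uptake list, 6 fell, against 0.971% of all tested genes, and 0 rose, with a median log2 fold change of -0.24; Slc2a1 and Pdk1 are also in the hypoxia list. In 12 of the 22 the 4 h libraries lay below the 0 h libraries of their batch, against 10.4% of tested genes. Pfkl, the liver-type phosphofructokinase that commits glucose to glycolysis (ENSMUSG00000020277.9, chromosome 10 from 77986947 to 78010083), had 1566, 1924 and 1385 normalized counts at 4 h, against 3217, 2811, 2809.9 and 2888 at 0 h. The groups of Pfkl did not overlap, and it fell by 45.6% (log2 fold change -0.88 ± 0.09, adjusted p = 3.54e-06). The platelet-type subunit Pfkp was at 10228, 13289.7 and 10263 at 4 h and 16979, 13079, 13133 and 13254 at 0 h (log2 fold change -0.35 ± 0.08, adjusted p = 0.0232). Gpi1, which turns glucose 6-phosphate into fructose 6-phosphate, was at 6614, 8189.7 and 6408 at 4 h and 10499.7, 8210.0, 8757 and 8353 at 0 h (log2 fold change -0.36 ± 0.07, adjusted p = 0.0103). Batch 2 libraries of Pfkp and Gpi1 moved by about the same amount as batch 1 libraries, by -0.36 and -0.37 in batch 2 and by -0.35 and -0.36 in batch 1 on the log2 scale. Pgam1, a later enzyme of the pathway, was at 371, 398 and 362 at 4 h and 649, 370.0, 460.0 and 489 at 0 h (adjusted p = 0.0449), and its call was lost in 6 of the 7 leave-outs, with adjusted p up to 0.204. The call of Pfkp was lost in 4 of them, up to 0.171, and that of Gpi1 in 2, up to 0.117. Hk2, the inducible hexokinase, did not pass the test (-0.97 ± 0.25, adjusted p = 0.0595), nor did Ldha (-0.24 ± 0.10, adjusted p = 0.383) or Pgk1 (-0.03 ± 0.12, adjusted p = 0.965). Without 4 h replicate 1 or without 4 h replicate 3, 3 members of the list were called.

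Gys1, Gbe1 and Pgm1, enzymes of glycogen handling, were picked because they fell, and other glycogen genes were not counted. Gys1, glycogen synthase, was at 868, 1008 and 872 normalized counts at 4 h and 1207, 1293, 1192 and 1148 at 0 h (adjusted p = 0.003), although its exons overlap those of Ruvbl2 on the other strand. Gbe1, the branching enzyme, was at 462, 818 and 425 at 4 h and 1220.0, 544, 676 and 634 at 0 h (adjusted p = 0.00809). Pgm1, which links glucose 1-phosphate and glucose 6-phosphate, had 1789, 1902 and 1804 at 4 h, against 2371, 2201, 2232 and 2182 at 0 h (adjusted p = 0.00801). The 4 h values of Gys1 and Pgm1 lay below all 0 h values, and those of Gbe1 did so within each batch.

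Cholesterol synthesis genes fell at several steps, by smaller amounts. Of 34 tested members of the cholesterol and fatty acid synthesis list, 9 fell and 0 rose. Over all tested genes 0.971% fell and 0.223% rose. A negative log2 fold change was found for 31 of the 34, against 7168 of all 14828 tested genes, and the list median was -0.22. In 24 of the 34, all 4 h libraries lay below the 0 h libraries of their batch, against 10.4% of tested genes. Among the 9 called were Hmgcs1, Pmvk, Mvd, Fdft1, Sqle, Cyp51, Msmo1 and Hsd17b7, all enzymes between acetyl-CoA and cholesterol. Fatty acid genes of the list did not pass the test, with Fasn at -0.09 ± 0.13 (adjusted p = 0.86), Acaca at 0.04 ± 0.15 (adjusted p = 0.951) and Scd1 at -0.00 ± 0.32 (adjusted p = 0.999). Without 4 h replicate 1 the list had 7 lower members and without 4 h replicate 3 it had 5.

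Sqle, squalene epoxidase (ENSMUSG00000022351.14, chromosome 15 from 59315077 to 59331192), had 1949.7, 2202 and 2041 normalized counts at 4 h, against 3199, 2901, 2916 and 2953 at 0 h. Both batches of Sqle moved alike, by -0.55 in batch 2 and -0.54 in batch 1, and the fitted log2 fold change was -0.54 ± 0.06 (adjusted p = 8.99e-06). Cyp51, the lanosterol demethylase (ENSMUSG00000001467.5, chromosome 5 from 4081145 to 4104746), was at 3153, 2424 and 3140.1 at 4 h and 3663, 4168, 4257 and 4387 at 0 h, a fall of 28.2% (log2 fold change -0.48 ± 0.06, adjusted p = 6.54e-05). Every 4 h library of Cyp51 was below every 0 h library, and its exons overlap those of Akap9 on the other strand by 166 bases. Msmo1, which oxidises a methyl group of the sterol ring, was at 1616, 1637 and 1531 at 4 h and 2249.6, 2168, 2277 and 2366 at 0 h (log2 fold change -0.51 ± 0.09, adjusted p = 0.0028). Hsd17b7, a sterol ketoreductase, was at 579, 563 and 583 at 4 h and 898, 741, 734 and 738 at 0 h (log2 fold change -0.43 ± 0.07, adjusted p = 0.00103). Neither Msmo1 nor Hsd17b7 overlapped between the groups.

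Hmgcs1, an early synthase of the pathway, was at 5391, 8014 and 5181 normalized counts at 4 h and 9806, 7576, 7962 and 8103 at 0 h (log2 fold change -0.49 ± 0.09, adjusted p = 0.00464). The batch 1 library of Hmgcs1 at 4 h lay among the batch 2 values at 0 h, and it was not called without 4 h replicate 3 (adjusted p = 0.0778). Fdft1, squalene synthase, changed by -0.48 ± 0.10 (adjusted p = 0.0127), and its exons overlap those of Ctsb on the other strand by 774 bases. Aacs, a cytosolic acetoacetyl-CoA synthetase chosen after its values were seen, had 1232, 933 and 1347 at 4 h, against 1135, 1664, 1635 and 1657 at 0 h (adjusted p = 0.00865). The factor gene Srebf2 was -0.18 ± 0.07 (adjusted p = 0.288). The sterol export list had 0 of 8 tested members called.

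Among the sterol genes, Hmgcs1 had a window with the sterol element TCACNCCAC, the only 1 of the 31 windows of the list that did (3.23%, against 1.15% of the windows of tested genes). It is shown with that element in capitals, 137 bases before the start.
Hmgcs1 (chr13:119690101-119690400, plus strand): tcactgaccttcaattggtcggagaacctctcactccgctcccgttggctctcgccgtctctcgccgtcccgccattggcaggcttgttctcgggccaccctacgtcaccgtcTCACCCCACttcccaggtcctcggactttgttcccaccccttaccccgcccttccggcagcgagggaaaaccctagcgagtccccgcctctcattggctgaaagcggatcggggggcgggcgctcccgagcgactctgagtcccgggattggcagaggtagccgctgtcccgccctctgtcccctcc

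Bcl2, Pim2 and Pim1, survival genes downstream of IL-2, fell. In the list of IL-2 receptor and STAT5 targets 4 of 25 tested members fell and 0 rose, with a median of 0.00. In the list of SOCS, CISH and PIM feedback genes 2 of 15 fell (Pim2 and Pim1), with a median of -0.03. Among all tested genes 0.971% fell and 0.223% rose. Bcl2, which blocks mitochondrial cell death (ENSMUSG00000057329.7, chromosome 1 from 106538178 to 106714274), had 3041, 2789.9 and 3077 normalized counts at 4 h, against 6199, 4943, 4820.2 and 5006 at 0 h. The 4 h libraries of Bcl2 lay close together across batches and below all 0 h libraries, and the log2 fold change was -0.82 ± 0.11 (adjusted p = 6.54e-05). Pim2, a survival kinase, was at 468, 378 and 514 at 4 h and 709.5, 724, 778 and 751 at 0 h and fell by 38.7% (log2 fold change -0.71 ± 0.08, adjusted p = 1.08e-05). Pim1 was at 2964, 2811 and 2755 at 4 h and 3595, 3453, 3307 and 3221 at 0 h, a smaller fall of 15.8% (adjusted p = 0.0291). The calls of Bcl2 and Pim2 held in all 7 leave-outs; that of Pim1 was lost in 4, with adjusted p up to 0.296.

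The cytokine gene Lif was at 92.1, 70.5 and 92.6 normalized counts at 4 h and 186, 124, 120.3 and 119 at 0 h (log2 fold change -0.68 ± 0.16, adjusted p = 0.0337), and Osm, a related cytokine, was at 240.3, 289.6 and 335 at 4 h and 449.9, 354, 352 and 347 at 0 h (-0.40 ± 0.10, adjusted p = 0.0354). At 4 h both lay below all 0 h libraries. Prdm1, which encodes the effector factor Blimp-1, was at 804, 1736 and 733 at 4 h and 2963, 1422, 1451 and 1523 at 0 h (-0.84 ± 0.21, adjusted p = 0.0421). The calls of Lif, Osm and Prdm1 were lost in 5, 6 and 6 of the 7 leave-outs, with adjusted p up to 0.232, 0.261 and 0.365. Il2ra, the alpha chain of the IL-2 receptor, was at 17290.5, 15384 and 19210.0 at 4 h and 18756, 17465, 16237 and 16740.3 at 0 h (0.01 ± 0.10, adjusted p = 0.977). The feedback genes Cish, at 1671 ± 299 and 1930.4 ± 123 normalized counts at 4 h and 0 h, and Socs1, at 857 ± 160.3 and 827 ± 84.8 (SD), did not pass the test (adjusted p = 0.486 and 0.884).

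**Figure D2:**
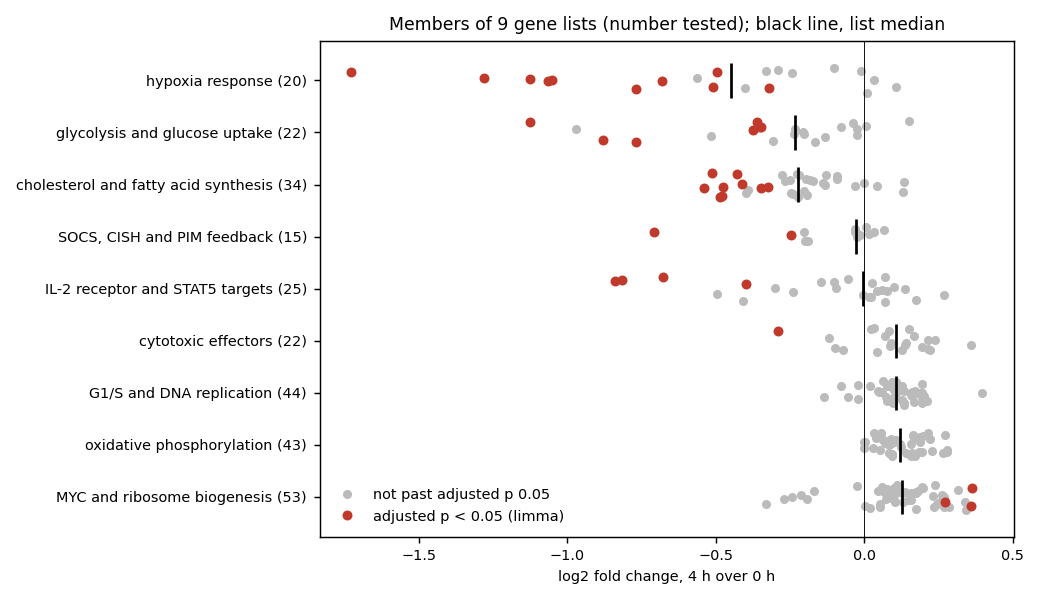
Log2 fold change of 4 h over 0 h (horizontal axis) for every tested member of 9 gene lists, 1 point per gene, red where the adjusted p was below 0.05 and grey otherwise, with the list median as a black line. The hypoxia, glycolysis and cholesterol lists lie to the left of 0, with medians of -0.45, -0.24 and -0.22, and the oxidative phosphorylation and ribosome biogenesis lists to the right, with medians of 0.12 and 0.13.

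Several of the largest falls among genes with at least 50 normalized counts were outside these lists; predicted genes, RIKEN clones and pseudogenes were left out of this ranking. Neil2, a glycosylase that removes oxidised bases from DNA (ENSMUSG00000035121.5, chromosome 14 from 63182443 to 63193856), had 149.8, 1393 and 109 normalized counts at 4 h, against 2864, 550.3, 619 and 698 at 0 h. Batch 1 was several times higher than batch 2 in both groups, and the fitted log2 fold change was -1.91 ± 0.23 (adjusted p = 2.08e-05). Kif26a, of the kinesin family, was at 7.75, 78.1 and 1.95 at 4 h and 186, 31.8, 25 and 22.3 at 0 h (-2.02 ± 0.36, adjusted p = 0.00258); its 4 h value in replicate 3 lies under the floor of 3 reads. Rgs11, a regulator of G-protein signalling, was at 119, 376 and 105 at 4 h and 599.9, 361, 412 and 390.4 at 0 h (-1.47 ± 0.27, adjusted p = 0.00428). St6gal1, which adds sialic acid to glycans, was at 23.3, 36.5 and 18.5 at 4 h and 156, 43.6, 48.1 and 43.6 at 0 h, with no overlap (-1.37 ± 0.18, adjusted p = 6.54e-05). The Kctd11 gene was at 169.6, 642 and 170.5 at 4 h and 1366, 445, 501 and 467 at 0 h (-1.32 ± 0.19, adjusted p = 0.000178). Tmem119, a membrane protein gene and the most abundant of this set, was at 2711, 8239 and 2407 at 4 h and 13149, 6837, 7640.4 and 7235 at 0 h (-1.25 ± 0.16, adjusted p = 3.21e-05). Within each batch the 4 h values of these 6 genes were below the 0 h values. Next in that ranking, outside the lists, were Spocd1 (-1.18 ± 0.26, adjusted p = 0.0218), the incretin receptor gene Gipr (-1.07 ± 0.22, adjusted p = 0.00848) and Ankrd35 (-1.05 ± 0.20, adjusted p = 0.0047). Of the predicted genes left out, the processed pseudogene Gm16439 was called lower (-1.39 ± 0.15, adjusted p = 5.47e-06) and the antisense transcript Gm16754 too (-1.07 ± 0.24, adjusted p = 0.0235), with -1.45 in batch 2 and -0.14 in batch 1. Calls of Kif26a, Rgs11, Gipr and Ankrd35 were each lost in 1 of the 7 leave-outs (adjusted p up to 0.0565, 0.0636, 0.106 and 0.0901) and that of Spocd1 in 5 (up to 0.174).

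The ATF4, cyclin D, FOXO and p53 lists each had 1 or 2 called members, all lower, and list medians of -0.02, 0.01, -0.02 and 0.02. For these lists and those named below, the share called lower over all tested genes was 0.971%. Ddit4, an inhibitor of the growth kinase mTORC1, had 1787, 3865 and 1348 normalized counts at 4 h, against 5399, 2585, 3076 and 2907 at 0 h (-0.75 ± 0.11 on the log2 scale, adjusted p = 0.000468), and was the 1 called member of 31 in the ATF4 amino acid response list. Ccng2, a cyclin that slows the cycle, was at 1014, 1715 and 873 at 4 h and 2239.5, 1514, 1647 and 1679 at 0 h (-0.65 ± 0.11, adjusted p = 0.00227). Cdkn1a, the p21 inhibitor of cyclin-dependent kinases, was at 2155, 2804 and 2024 at 4 h and 4103, 2576, 2732 and 2669 at 0 h (-0.39 ± 0.09, adjusted p = 0.0354). These were the 2 called of 16 tested members in the cyclin D and inhibitor list, and Ccng2 was 1 of 22 in the FOXO list and Cdkn1a 1 of 20 in the p53 list. The checkpoint receptor gene Ctla4 was at 24.1, 283 and 18.5 at 4 h and 437, 44.8, 51.8 and 42.6 at 0 h (-0.93 ± 0.19, adjusted p = 0.00825), several times higher in batch 1 than in batch 2 in both groups. Vsir, which encodes the checkpoint protein VISTA, was at 2906, 4104 and 2839 at 4 h and 4466, 3937, 3900.2 and 3858 at 0 h (-0.34 ± 0.06, adjusted p = 0.0047); with Ctla4 it made 2 of 14 in the list of inhibitory and costimulatory receptors. Id2, a factor of effector T cells, changed by -0.37 ± 0.09 (adjusted p = 0.0479), and with Prdm1 made 2 of 22 in the list of effector and memory factors; Id2 was also the 1 called of 15 TGF-beta targets. The autophagy gene Wipi1 changed by -0.67 ± 0.13 (adjusted p = 0.00465), 1 of 30 in the lysosome and autophagy list, and Bcl2l2, a survival relative of Bcl2, by -0.30 ± 0.07 (adjusted p = 0.0193), the second called of 12 in the BCL-2 family. Calls of Cdkn1a and Id2 were lost in 5 and 5 of the 7 leave-outs (adjusted p up to 0.29 and 0.363), and those of Ccng2, Ctla4 and Vsir in 1 each (up to 0.0565, 0.141 and 0.0813). That of Bcl2l2 was lost in 3 (up to 0.163).

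The 33 rises were smaller. Coq8a, which takes part in coenzyme Q synthesis in mitochondria (ENSMUSG00000026489.13, chromosome 1 from 180165238 to 180199602), had 45.6, 57.8 and 60.4 normalized counts at 4 h, against 30.3, 21.2, 25.9 and 25.5 at 0 h. The groups of Coq8a did not overlap, and it rose by 1.04 ± 0.21 on the log2 scale (adjusted p = 0.00811). Slc24a3, a sodium, calcium and potassium exchanger, was at 76.6, 84.9 and 81.8 at 4 h and 44.7, 46, 44.4 and 56.4 at 0 h (0.77 ± 0.16, adjusted p = 0.00864). Qprt makes nicotinic acid mononucleotide, a precursor of NAD, and was at 674, 502 and 697 at 4 h and 316, 429, 481 and 436 at 0 h (0.62 ± 0.10, adjusted p = 0.000759). Slc52a2, a riboflavin transporter, was at 325, 269 and 334 at 4 h and 205, 240.4, 255 and 223 at 0 h (0.44 ± 0.08, adjusted p = 0.0029). All 4 h libraries of these 4 genes were above all 0 h libraries. Fbxl16, of the F-box family, rose by 0.50 ± 0.08 (adjusted p = 0.00175), the secreted guidance factor Sema3a by 0.58 ± 0.11 (adjusted p = 0.0049) and the potassium channel gene Kcnk10 by 0.54 ± 0.11 (adjusted p = 0.0106). Of the 19 rises named, which include Etv4, Qprt, Fbxl16 and Slc52a2 kept the call in all 7 leave-outs.

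Some of the rises were in ribosome assembly and polyamine synthesis. Srm, spermidine synthase, had 673, 403 and 798 normalized counts at 4 h, against 384, 491, 455 and 411 at 0 h (0.52 ± 0.12, adjusted p = 0.0242); its log2 difference was 0.70 in batch 2 and 0.07 in batch 1 and was the 1 called of 33 in the nucleotide and polyamine list. In the list of MYC and ribosome biogenesis genes 3 of 53 tested members rose and 0 fell, with a median of 0.13. Across all tested genes 0.223% rose and 0.971% fell. In 14 of the 53 the 4 h libraries lay above the 0 h libraries of their batch, against 11.4% of tested genes. The 3 called were Bop1, at 2132, 1844 and 2256 at 4 h and 1579, 1996, 1708 and 1720.2 at 0 h (0.27 ± 0.07, adjusted p = 0.0429), Rcl1, at 574, 448 and 576 at 4 h and 366, 432, 480.4 and 417 at 0 h (0.36 ± 0.07, adjusted p = 0.0102), and Mrto4, at 538, 423 and 572 at 4 h and 369, 411, 445 and 382 at 0 h (0.36 ± 0.09, adjusted p = 0.0449). All 3 take part in building ribosomal subunits. Ubtf, a factor of ribosomal RNA transcription, was at 5973, 5125 and 5979 at 4 h and 4160.4, 5232, 5075 and 5005 at 0 h (0.25 ± 0.05, adjusted p = 0.0157). Their calls were lost in 5, 5, 3, 6 and 4 of the 7 leave-outs, in the order Srm, Bop1, Rcl1, Mrto4 and Ubtf, with adjusted p up to 0.295, 0.259, 0.0728, 0.318 and 0.0976. Myc itself was at 2461, 1400.5 and 2725 at 4 h and 1374, 2748, 2630.4 and 2393 at 0 h (0.02 ± 0.06, adjusted p = 0.953). The median of this list was -0.07 within batch 1 and 0.22 within batch 2.

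Other rises included Cd8a, a chain of the CD8 co-receptor, at 82.7, 152 and 85.7 normalized counts at 4 h and 114, 56.6, 51.8 and 46.8 at 0 h (0.64 ± 0.16, adjusted p = 0.0497). It was the 1 called of 25 tested T-cell identity genes, while 0.223% of all tested genes rose. Ung, which removes uracil from DNA, was at 1419, 654 and 1466 at 4 h and 509, 1116, 1093 and 1047 at 0 h (0.40 ± 0.10, adjusted p = 0.0497). S100a11, a calcium-binding protein gene, changed by 0.51 ± 0.13 (adjusted p = 0.0449). Among the more abundant genes that rose, Nsun2, an RNA methyltransferase whose exons overlap those of Tent4a, changed by 0.30 ± 0.08 (adjusted p = 0.0499), Bzw2 by 0.33 ± 0.07 (adjusted p = 0.0113) and Brinp3 by 0.34 ± 0.08 (adjusted p = 0.0273). The call of Ung was lost in 7 of the 7 leave-outs (adjusted p up to 0.221), those of Cd8a and Nsun2 in 6 and 6 (up to 0.203 and 0.286). Those of S100a11 and Brinp3 were lost in 5 and 5 (up to 0.366 and 0.182) and that of Bzw2 in 2 (up to 0.0888). S100a11 was also not called with edgeR or in batch 2 alone.

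Nuclear genes of oxidative phosphorylation had small, mostly positive differences. None of 43 tested members passed the test, 41 had a positive log2 fold change, and the largest was 0.28 for Uqcrb (adjusted p = 0.434). Of all 14828 tested genes, 7660 had a positive log2 fold change. The list median was 0.12, and in 23 of the 43 the 4 h libraries lay above the 0 h libraries of their batch, against 11.4% of tested genes. Uqcrc1, of respiratory complex III, was at 3425, 2779.7 and 3624 at 4 h and 2525, 3105, 3152 and 2993 at 0 h (0.17 ± 0.07, adjusted p = 0.316), and Atp5d, of the ATP synthase, was at 2571, 2403 and 2729.9 at 4 h and 1968, 2444, 2485 and 2252 at 0 h (0.19 ± 0.08, adjusted p = 0.326). The DNA replication list had a median of 0.11 with 0 of 44 called, and the mitosis list a median of 0.00 with 0 of 50 called. Within batch 1 the medians of these 2 cell-cycle lists were -0.14 and -0.15, and within batch 2 they were 0.20 and 0.06.

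Most cytotoxic effector genes did not pass the test. Gzmb, the protease granzyme B, had 38063, 39728 and 36781 normalized counts at 4 h, against 47273, 30625, 32552 and 34314 at 0 h (0.07 ± 0.09, adjusted p = 0.841), and Prf1, perforin, was at 17608, 33059.5 and 18086 at 4 h and 38586, 18346, 18714 and 18206 at 0 h (-0.10 ± 0.08, adjusted p = 0.712). Their values overlapped between the groups. The 1 called of 22 tested effector genes was Rab27a, which docks cytotoxic granules, at 2991, 3165 and 2937 at 4 h and 4395, 3387, 3485 and 3454 at 0 h (-0.29 ± 0.06, adjusted p = 0.0153, lost in 3 of 7 leave-outs, up to 0.119). Ifng, at 49.1, 60.3 and 75 at 4 h and 41.8, 38.9, 37 and 28.7 at 0 h, was above all 0 h values at 4 h and did not pass the test (0.72 ± 0.19, adjusted p = 0.0556). Lif and Osm, both lower, were the 2 called of 15 tested cytokines and chemokines. For the effector and cytokine lists alike, the share called lower over all tested genes was 0.971%.

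A further 10 lists of signalling and stress genes had 0 called members. They were immediate early genes (28 tested), amino acid transporters (16), the glucose-sensing TXNIP family (9), replication-dependent histones (29), NF-kB targets (25), interferon response genes (37), heat shock genes (19), the unfolded protein response (22), NRF2 and metal response genes (18) and the circadian clock (13). Medians of these lists ran from -0.08 to 0.13. Txnip, which restrains glucose uptake, was at 6938, 7915 and 7063 normalized counts at 4 h and 7046, 6955, 6804 and 6944 at 0 h (0.06 ± 0.07, adjusted p = 0.832). Egr1, an immediate early factor, was at 40.5, 49.3 and 43.8 at 4 h and 30.3, 60.1, 60.2 and 59.6 at 0 h (-0.19 ± 0.22, adjusted p = 0.822), and Asns, a target of ATF4, at 1169, 1629.8 and 1159 at 4 h and 2087, 1181, 1193 and 1170.2 at 0 h (-0.11 ± 0.08, adjusted p = 0.648). Ccnd2, cyclin D2, was 0.02 ± 0.10 (adjusted p = 0.962). The haem oxygenase gene Hmox1 came nearest to the threshold, with every 4 h library below the 0 h libraries of its batch (-0.39 ± 0.10, adjusted p = 0.0589). Homing receptors had 0 of 17 called. Marker lists of macrophages (3 tested), B cells (2), fibroblasts (4), skeletal muscle (7), melanocytes (4) and erythroid cells (1) had 0 called members, and their summed levels ran from 8232 to 9770 at 4 h and 6289 to 10161 at 0 h for macrophages, mostly Itgax, and from 637 to 812 at 4 h and 506 to 733 at 0 h for muscle, mostly Ckm.

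The change at 4 h was set beside the earlier untreated time of 2 h. Between 4 h and 2 h, 54 genes were lower at 4 h (0.364% of 14828) and 20 higher (0.135%), and 6 cholesterol genes and 4 hypoxia genes were among the lower ones. Bnip3 was at 868, 1828 and 832 normalized counts at 4 h and 3857, 1328 and 1585 at 2 h, replicate 1 being the batch 1 library at 2 h (-0.87 ± 0.14, adjusted p = 0.0018). Pim2 was at 468, 378 and 514 at 4 h and 728, 811 and 711 at 2 h (-0.73 ± 0.09, adjusted p = 4.19e-05), and Bcl2 at 3041, 2789.9 and 3077 at 4 h and 4790.3, 5119 and 4982 at 2 h (-0.74 ± 0.12, adjusted p = 0.00162). At 2 h these 3 genes were still above every 4 h library of their batch. Hsd17b7 was at 579, 563 and 583 at 4 h and 897, 941 and 982 at 2 h (-0.71 ± 0.07, adjusted p = 1.46e-05), and Sqle, Cyp51 and Msmo1 changed from 2 h by -0.39 ± 0.06, -0.51 ± 0.07 and -0.61 ± 0.10 on the log2 scale (adjusted p = 0.00243, 0.000313 and 0.0018). These 7 calls held when any of the 6 libraries was left out.

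Other genes were already low at 2 h. Slc2a1 was at 824, 1827 and 797 normalized counts at 4 h and 1406, 995 and 843 at 2 h (0.01 ± 0.13, adjusted p = 0.996). Ccng2 was at 1014, 1715 and 873 at 4 h and 1063, 569 and 697 at 2 h and was higher at 4 h (0.62 ± 0.12, adjusted p = 0.0142), as was Narf, a gene chosen after its values were seen, at 952, 1674 and 924 at 4 h and 904, 612 and 649 at 2 h (0.68 ± 0.10, adjusted p = 0.000528). Both were called lower at 4 h than at 0 h (Narf -0.46 ± 0.09, adjusted p = 0.00675). For Narf that difference lay in batch 2 (-0.64), against -0.04 in batch 1, and the batches differed by 0.60 ± 0.11 (adjusted p = 0.0211). The chemokine receptor gene Cxcr4 was at 330.2, 262, 332 and 267 at 0 h, 87.5, 112 and 105 at 2 h and 215, 221 and 176 at 4 h; it was higher at 4 h than at 2 h (adjusted p = 0.0336), and its difference between 4 h and 0 h did not pass the test (adjusted p = 0.331). The call of Ccng2 was lost without 2 h replicate 2 or without 4 h replicate 2 (adjusted p up to 0.19), and that of Cxcr4 in 5 of 6 leave-outs (up to 0.332). The library 2 h replicate 2 held 502 normalized counts of the 5 muscle genes Acta1, Myh1, Myh4, Tnni2 and Tnnt3, against at most 2.65 in the other 2 h libraries and 10.3 at 4 h; without it 44 genes were called in place of 74, and its part in other genes was not tested.

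**Figure D3:**
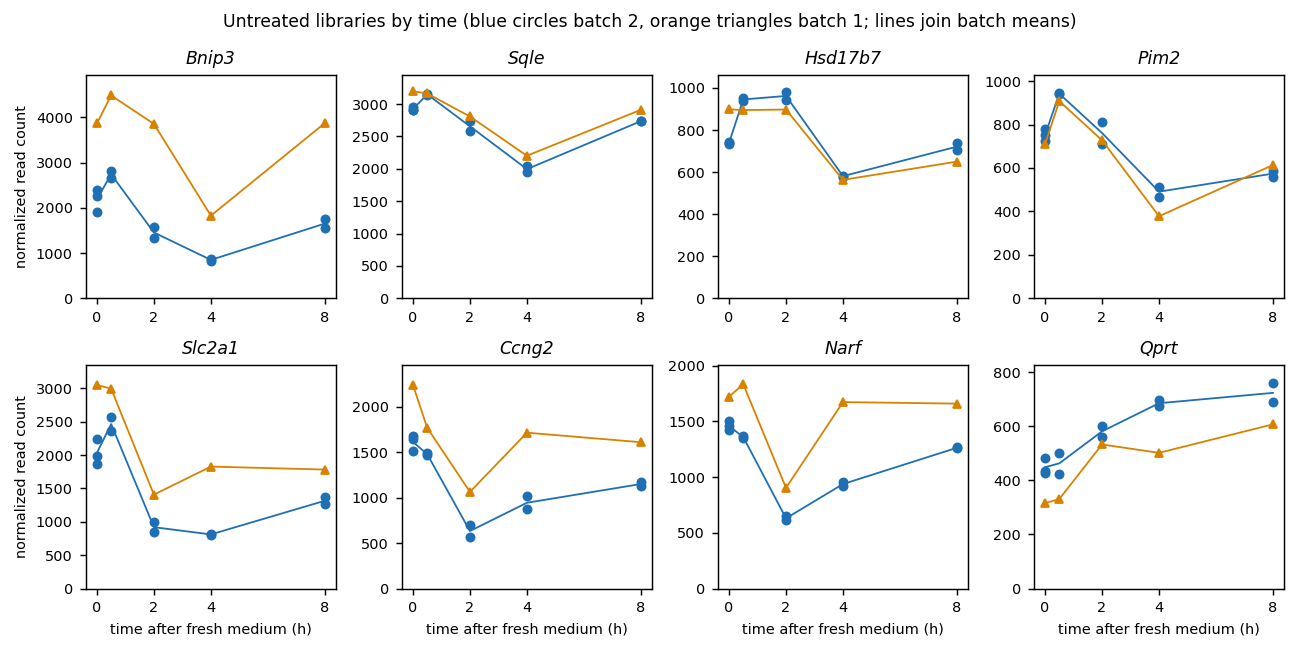
Normalized read count (vertical axes, linear, from 0) of 8 genes in the untreated libraries against time after fresh medium in h, with blue circles for batch 2, orange triangles for batch 1 and lines joining the means of a batch. Bnip3, Sqle, Hsd17b7 and Pim2 are lowest at 4 h in both batches, Slc2a1 is lower at 2 h than at 0 h, Ccng2 and Narf are lowest at 2 h, and Qprt is higher at 4 h than at 0 h in both batches.

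By 8 h several of the fallen genes were higher again, a comparison that rests heavily on single libraries. Between 8 h and 4 h, 422 genes were higher at 8 h (2.85%) and 519 lower (3.5%), 941 in all, and this count was 17 without 8 h replicate 2, 16 without 4 h replicate 2 and 3694 without 8 h replicate 3. The 5 muscle genes summed to 819 and 820.3 normalized counts in 8 h replicates 1 and 2 and to 3.57 in replicate 3. Bnip3 was at 3876, 1755 and 1552 at 8 h and 868, 1828 and 832 at 4 h, replicate 1 being the batch 1 library at 8 h (1.00 ± 0.14, adjusted p = 0.00242). Sqle was at 2912, 2737 and 2737 at 8 h and 1949.7, 2202 and 2041 at 4 h (0.44 ± 0.06, adjusted p = 0.00336), and Bnip3l at 2632, 1889.8 and 1673 at 8 h and 1269, 1709 and 1184 at 4 h (0.57 ± 0.09, adjusted p = 0.00404). The calls of these 3 genes held in all 6 leave-outs (adjusted p up to 0.0245, 0.0245 and 0.0326). Bcl2 was at 2974, 3485 and 4126 at 8 h and did not differ from 4 h past the threshold (adjusted p = 0.171). Msmo1, Cyp51, Pfkl and Pim2 were higher at 8 h with calls that 3 leave-outs each removed.

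Cells given exosomes in the fresh medium were also sampled at 4 h, and their values are set beside those of untreated cells as description, without a test. Bnip3 was at 789, 1937 and 796 normalized counts in exosome-treated cells at 4 h, against 868, 1828 and 832 in untreated cells at 4 h. Sqle was at 2386, 2186 and 2121 in exosome-treated cells, against 1949.7, 2202 and 2041 in untreated cells, and Pim2 at 419, 318 and 416, against 468, 378 and 514.

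The 2 batches differed in level for many genes and in the size of the change for some. The test of the difference in the 4 h change between batches, which rests on 1 library against 1 in batch 1, called 138 genes (0.931%). Of the 177 genes called for the 4 h change, 7 were among them, and only Etv4 had opposite signs in the 2 batches. Etv4, a factor downstream of ERK signalling, was the 1 called of 11 in the ERK feedback list, while 0.223% of all tested genes rose. Etv4 had 685, 884 and 761 normalized counts at 4 h, against 1076, 351, 341 and 336 at 0 h. It was higher at 4 h in batch 2 (log2 difference 1.07) and lower in batch 1 (-0.28), so its fitted rise of 0.69 ± 0.16 (adjusted p = 0.0291) is a mean of unlike changes. Odc1, the first enzyme of polyamine synthesis, was at 3687, 2725 and 3738 at 4 h and 3594, 2646, 2584 and 2536 at 0 h, with 0.52 in batch 2 and -0.40 in batch 1 (difference -0.92 ± 0.11, adjusted p = 0.000925). Lif fell by more in batch 1 (-1.39) than in batch 2 (-0.39, adjusted p of the difference = 0.0401), and Neil2 by more in batch 2 (-2.27) than in batch 1 (-1.04, difference 1.23 ± 0.23, adjusted p = 0.0195). For Bnip3, Pdk1, Sqle, Cyp51 and Bcl2 the difference between batches did not pass the test (adjusted p = 0.503, 0.797, 0.976, 0.505 and 0.167). Without 4 h replicate 1 or 3 the count of 138 was 30 or 33, and it was 342 with the 2 groups fitted alone.

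**Figure D4:**
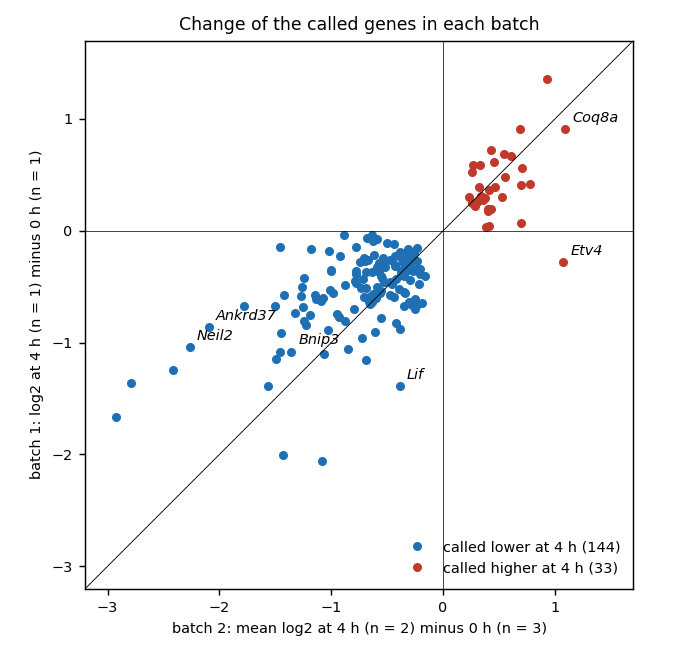
Log2 difference between 4 h and 0 h in batch 1 (vertical axis, 1 library each) against batch 2 (horizontal axis, 2 libraries at 4 h and 3 at 0 h) for the 177 called genes, blue where lower at 4 h and red where higher, with the diagonal of equal change. Etv4 is the gene with opposite signs, rising in batch 2 and falling in batch 1.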

How the data were processed

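RNA of CTLL2 cells was sequenced as paired reads from TruSeq libraries, per the labels' protocols. Per the submitters' processing notes, build GRCm38.p2 was used, with STAR 2.4.2, CASAVA 1.8.4, R 3.3.2, DESeq2 and featureCounts 1.5.0 among the tools. Not given in the sources used here are the annotation release, strand use and treatment of multi-mapping reads. The deposited signal is a normalized count per gene, the reads the authors divided by a size factor per library. Division by the smallest step gave whole reads for 100% of values (tolerance 0.01), which set the depth and served edgeR and DESeq2.

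Genes with at least 10 normalized counts in 3 libraries were tested with limma 3.58.1 (R 4.3.3) on log2(value + 1), so fold changes of low genes are understated. The model held 9 groups and batch over all 28 libraries, with Benjamini-Hochberg adjustment over 14828 genes at 0.05. An interaction model tested the difference between batches. On simulated data for 4 h against 0 h with 14642 genes, limma called 82.8% of 2-fold and 100% of 4-fold changes. edgeR 4.0.16 called 143 genes lower and 25 higher, and DESeq2 1.42.0 called 183 and 101.

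Named genes were the 14 largest changes and 5 most abundant genes in each direction with at least 50 normalized counts and the same sign in both batches, leaving out predicted genes, RIKEN clones, pseudogenes and genes without a symbol, up to 4 called members of each of 41 lists (the 2 of smallest p where none was called), 13 fixed genes and the 5 clearest batch differences. Further called or uncalled list members and the glycogen genes, Aacs, Narf, Gm16439, Gm16754 and Cxcr4's time course were chosen after their values were seen. Some genes that this rule names are not reported here. The comparison and lists were chosen with earlier results of these data known. Coordinates are from GENCODE annotation on GRCm38, which matched 30403 of 30608 gene identifiers. Deviations of same-numbered libraries had r = -0.44, -0.40 and 0.30. The sign of r followed batch over all pairs of a 4 h and a 0 h library. It was negative for every pair from different batches (-0.32 to -0.50) and positive for every pair within a batch (0.17 to 0.64). The check therefore cannot decide whether libraries were paired, and replicate numbers were not treated as pairs. Alternatives were another normalization, both count tools, 2 pseudocounts, 2 filters, the compared groups alone, no batch term, batch 2 alone, a replicate block and leaving out each library.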

Additional observations from a re-analysis of the deposited data

Results flagged for a closer look

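Single 0 h libraries stood apart for 15 of the 113 named genes. The measure is the gap from the highest or lowest of the 4 batch-adjusted log2 values to its neighbour, divided by their whole range, set against Dixon's critical value for 4 samples; chance exceeds it in about 1 in 20 groups. The library was 0 h replicate 1, the 1 batch 1 library of the group, for Nsun2 (0.879), Pfkp (0.857), Etv4 (0.925), Bcl2 (0.834), Lif (0.901), Osm (0.868), Hspa5 (0.965), Mitf (1), Egr1 (0.987), Asns (0.906), Ccnd2 (0.894) and Odc1 (0.899). It was 0 h replicate 2 for Coq8a (0.904) and 0 h replicate 4 for Cdt1 (0.879) and Rfc3 (0.879). Before adjustment for batch, 34 genes exceeded the value, 33 of them for 0 h replicate 1.

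The 4 h change differed between the batches for 9 named genes by the interaction test, in which batch 1 has 1 library a group. The change in batch 1 minus that in batch 2, in log2 units, was positive for Neil2 (1.228), Rgs11 (1.11), Tmem119 (0.8262) and Ptprs (1.133) and negative for Etv4 (-1.356), Lif (-1.001), Arnt2 (-1.03), Odc1 (-0.9191) and Tph1 (-1.186).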

How the results depend on the processing

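Of the gene values under these alternatives, 1724 kept direction and side of the threshold, 242 lost the call, 27 gained it and 33 changed sign. Of the 58 named genes that were called, 21 kept the call in all 7 leave-outs; 36 lost it without 4 h replicate 3 and 20 without 4 h replicate 1, 54 without the batch term and 22 with the replicate block. With DESeq2, the compared groups alone, no batch term, batch 2 alone and the replicate block, the count of higher genes was 101, 104, 0, 313 and 9 in place of 33. Without the batch term, in batch 2 alone and with the replicate block, the count of lower genes was 10, 379 and 83 in place of 144. Leave-outs gave 3 to 62 higher genes, lowest without 4 h replicate 3 and highest without 0 h replicate 1, and 49 to 133 lower genes. The 74 genes between 4 h and 2 h became 187 with DESeq2, 7 with the compared groups alone, 9 without the batch term, 114 in batch 2 alone and 20 to 64 in the leave-outs, with 20 without 4 h replicate 2, 32 without 2 h replicate 3 and 42 without 4 h replicate 3. The 941 between 8 h and 4 h became 1824 with DESeq2, 232 without the filter, 0 with the compared groups alone, 3 without the batch term, 485 in batch 2 alone, 332 with the replicate block and 16 to 3694 in the leave-outs, with 32 without 4 h replicate 3 and 141 without 8 h replicate 1. The 138 genes differing between batches became 66 without the filter, 342 with the compared groups alone, 2 with the replicate block and 30 to 88 in the leave-outs; it could not be fitted without a batch 1 library. The cause of these shifts was not tested.

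The log2 fold changes that changed sign were all of uncalled genes, with the reported value in brackets. Cd68 (0.11) was -0.0476 in batch 2 alone and -0.01203 to 0.2023 in the leave-outs. Cd14 (0.065) was -0.01566 in batch 2 alone and -0.01222 to 0.1287 in the leave-outs. Cd79b (-0.44) was 0.04987 with edgeR, 0.01551 with DESeq2 and -1.106 to 0.3596 in the leave-outs. Pax5 (-0.15) was -0.3432 to 0.1256 in the leave-outs. Col1a1 (0.12) was -0.03994 with the replicate block and -0.03994 to 0.23 in the leave-outs. Ckm (0.15) was -0.00285 to 0.2877 in the leave-outs. Mitf (0.28) was -0.06021 to 0.5139 in the leave-outs. Il2ra (0.015) was -0.001574 with the compared groups alone, -0.004178 without the batch term, -0.01927 with the replicate block and -0.03395 to 0.128 in the leave-outs. Myc (0.018) was -0.0655 without the batch term, -0.02693 with the replicate block and -0.02693 to 0.07516 in the leave-outs. Socs1 (0.065) was -0.02469 with the replicate block and -0.02469 to 0.1388 in the leave-outs. Ccnd2 (0.022) was -0.01151 with the replicate block and -0.01151 to 0.1227 in the leave-outs. Ptprs (0.024) was -0.3117 in batch 2 alone and -0.2058 to 0.1704 in the leave-outs. Batch 1 gives 1 library a group, so its own change has no replicate check, and genes near 3 reads have little precision.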
